A study of Mus musculus with 12 samples.

Results

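The genes described here are 10 acute phase and metallothionein genes of the mouse: the serum amyloid A genes Saa1, Saa2 and Saa3, the acute phase genes Lcn2, Hp, Lbp and Serpina3n, and the metallothionein genes Mt1, Mt2 and Mt3. They were taken by name from the 44345 gene names of the count table. Saa1 and Saa2 were chosen by their measured values, a large rise after axotomy, so their levels are given as a description with no test. The other 8 genes were listed beside them with earlier results of the same samples known.

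RNA was sequenced from whole sciatic dorsal root ganglia (DRG, levels L4 to L6) of C57BL/6 mice aged 5 to 8 weeks. The mice lived for 10 days in standard housing (SH) or in environmental enrichment (EE), had sham surgery or sciatic nerve axotomy (SNA) after that, and gave their ganglia 24 h after the operation. There were thus sham and SNA groups in standard housing (SH Sham and SH SNA) and in enrichment (EE Sham and EE SNA), 4 groups of 3 samples, and each sample was a pool of ganglia from 2 mice, so that a group stood for 6 mice. All mice were of one strain with no transgene or drug named. The samples held 11343579 to 22871460 reads in genes, with the most in EE SNA replicate 2. EE SNA replicate 3 stood apart in its neutrophil marker genes, which summed to 812 CPM (counts scaled to a common library total) against at most 348 CPM in any other sample, and SH SNA replicate 2 in its skeletal muscle genes. As a check of the labels, the injury marker Atf3 was higher in SH SNA than in SH Sham by 2.12 ± 0.0882 (log2 fold change ± standard error, adjusted P = 7.38e-08), and in EE SNA than in EE Sham by 1.71 ± 0.0894 (adjusted P = 4.24e-06). By the study's account the EE Sham samples belong to a dataset it had described earlier, so that in every comparison with EE Sham, and in the interaction, the group and its dataset cannot be told apart.

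Acute phase proteins are plasma proteins that the liver releases in large amounts after injury or infection, under cytokines of the interleukin-6 and interleukin-1 families, and many of their genes can also be switched on in injured tissues. Serum amyloid A binds lipid and attracts leukocytes, lipocalin 2 binds bacterial siderophores, haptoglobin binds free haemoglobin, the lipopolysaccharide binding protein hands bacterial lipid to CD14, and Serpina3n inhibits serine proteases. Metallothioneins are small proteins rich in cysteine that bind zinc and copper. The genes Mt1 and Mt2 are switched on by zinc, glucocorticoids and cytokines, whereas Mt3 is known mainly from the nervous system.

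Because reads of close paralogs can be exchanged, the sequences of the pairs were compared first. Saa1 lies on chromosome 7 from 46740497 to 46742980 on the minus strand (GRCm38) and Saa2 from 46751790 to 46754313 on the plus strand, so that both are read outward from the stretch between them. Their coding sequences of 369 bases differed at 18 positions and were 95.1% identical, with a longest identical run of 73 bases. Bases 60 to 149 of the coding sequence held 11 of these differences and are printed here to make visible which reads could be told apart, with the differing bases in capitals.

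Saa1: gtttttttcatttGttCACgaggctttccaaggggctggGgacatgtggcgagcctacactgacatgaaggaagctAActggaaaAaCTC
Saa2: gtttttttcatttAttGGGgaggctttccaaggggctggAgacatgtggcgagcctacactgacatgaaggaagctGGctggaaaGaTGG

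No window of 100 bases, the length of one read, was shared exactly by the Saa1 and Saa2 transcripts, and 4.71% of the Saa1 windows matched Saa2 with at most 2 mismatches. Saa3 was more distant, with 76.1% and 75.1% of coding columns identical to Saa1 and Saa2. The split of reads between Saa1 and Saa2 is therefore uncertain for a minority of reads, and their sum is given beside each of them. Mt1 and Mt2 also lie side by side, on chromosome 8 at 94179082 to 94180327 and 94172664 to 94173568 on the plus strand, with Mt3 at 94152607 to 94154146, but their coding sequences were only 79.6% identical and no window of 100 bases came within 2 mismatches. Of the 588 exon bases of Mt2, 432 overlap an antisense gene, Gm45774, which is not among the gene names of the count table. As the counting is not stated to use strand, reads of Mt2 and of this antisense gene cannot be told apart. Lcn2 lies on chromosome 2 at 32384633 to 32388252 (minus strand), Lbp on chromosome 2 at 158306493 to 158332852 (plus strand), Hp on chromosome 8 at 109575128 to 109579172 (minus strand), Serpina3n on chromosome 12 at 104406729 to 104414329 (plus strand), and Saa3 on chromosome 7 at 46711998 to 46715700 (minus strand).

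Promoters, from 250 bases before to 50 bases after the RefSeq start (GRCm38.p6), were found for 8 of the 10 genes (Hp and Lbp were not matched). They are shown for the pairs that moved together, Saa1 with Saa2 and Mt1 with Mt2. The Saa1 promoter (chr7:46742931-46743230, minus strand) and the Saa2 promoter (chr7:46751583-46751882, plus strand) were 95.3% identical. The capitals mark the letters TTGCNNAA, a C/EBP motif, searched on both strands.

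Saa1: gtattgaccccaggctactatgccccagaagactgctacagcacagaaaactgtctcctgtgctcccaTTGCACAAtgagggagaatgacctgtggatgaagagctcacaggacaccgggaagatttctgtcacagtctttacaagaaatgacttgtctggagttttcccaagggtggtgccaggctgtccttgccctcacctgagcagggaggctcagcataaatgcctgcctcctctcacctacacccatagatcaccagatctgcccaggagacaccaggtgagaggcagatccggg
Saa2: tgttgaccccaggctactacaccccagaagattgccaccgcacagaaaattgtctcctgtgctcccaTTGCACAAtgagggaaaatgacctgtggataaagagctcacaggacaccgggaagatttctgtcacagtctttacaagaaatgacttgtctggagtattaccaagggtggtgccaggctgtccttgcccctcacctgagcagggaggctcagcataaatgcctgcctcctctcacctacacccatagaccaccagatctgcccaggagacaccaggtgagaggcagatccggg

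The same motif was found once in the promoters of Saa1, Saa2, Saa3, Lcn2 and Mt2, and in 10.8% of 32851 promoters of this length. The letters TTCNNNGAA (STAT) and GGGANTTTC (NF-kB) were in none of the 8 promoters, against 8.3% and 1.11% of all promoters. With shares this low, their absence from 8 promoters does not show that such sites are lacking. In the Mt1 promoter (chr8:94178839-94179138, plus strand) and the Mt2 promoter (chr8:94172368-94172667, plus strand) the capitals mark the core of the metal response element, TGCACNC or TGCGCNC, on either strand.

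Mt1: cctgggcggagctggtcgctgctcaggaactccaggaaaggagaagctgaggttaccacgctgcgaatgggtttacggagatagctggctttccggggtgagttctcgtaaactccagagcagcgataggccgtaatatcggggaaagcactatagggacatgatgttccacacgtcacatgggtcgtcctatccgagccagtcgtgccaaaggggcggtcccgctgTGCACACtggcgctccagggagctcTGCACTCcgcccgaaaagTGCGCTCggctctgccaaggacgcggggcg
Mt2: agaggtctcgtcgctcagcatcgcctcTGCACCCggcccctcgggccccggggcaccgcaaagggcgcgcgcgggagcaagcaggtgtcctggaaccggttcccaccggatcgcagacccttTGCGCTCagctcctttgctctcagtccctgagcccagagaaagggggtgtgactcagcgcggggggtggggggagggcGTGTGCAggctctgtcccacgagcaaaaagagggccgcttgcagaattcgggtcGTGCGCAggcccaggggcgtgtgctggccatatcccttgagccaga

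This core occurred 3 times in the Mt1 promoter, 4 times in that of Mt2 and 1 time in that of Mt3, and in no promoter of the other 5 genes. At least 1 match was held by 25.7% of all promoters and at least 3 by 1.97%. A match is a string of letters in this window and not a measured binding site.

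Per gene length, the 10 genes fell into a high and a low set (FPKM, reads scaled by gene length and library total, as the authors computed them). In SH Sham, Mt3 had 279.8 ± 25.5 FPKM (mean ± SD, n = 3), Mt1 215 ± 34.0, Mt2 206 ± 38.8 and Serpina3n 197 ± 19.3. The samples of Mt3, from 251 to 299 FPKM, lay above those of Mt1, from 176 to 238 FPKM, whereas Mt1, Mt2 and Serpina3n overlapped. Lcn2 had 5.41 ± 3.11 FPKM, Hp 3.85 ± 1.81, Lbp 3.52 ± 0.712, Saa1 1.67 ± 0.748, Saa2 0.465 ± 0.315 and Saa3 0.429 ± 0.335 in the same group, and of the neighbours in this order only Lbp and Saa1, and Saa1 and Saa2, did not overlap. In EE SNA the order at the top was Mt2 with 427 ± 58.4 FPKM, Mt1 with 387 ± 3.81, Mt3 with 298 ± 22.9 and Serpina3n with 253 ± 9.25. There the samples of Mt1 and Mt2 lay above those of Mt3, whose highest sample had 323 FPKM.

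**Figure D1:**
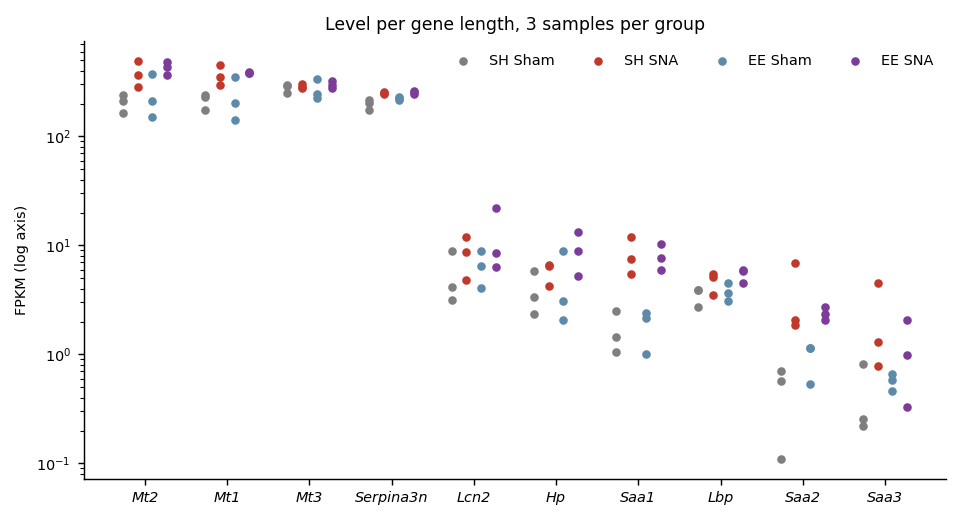
FPKM of each gene (log axis) with 1 point per sample, 3 samples in each of the 4 groups by colour. Mt1, Mt2, Mt3 and Serpina3n had over 100 FPKM in every sample, and the other 6 genes had at most 22.03 FPKM.

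The serum amyloid A genes had few reads in sham ganglia and more after axotomy (levels from here on are CPM after TMM scaling). Saa1, whose product is a major acute phase form, had 0.645, 1.51 and 0.869 CPM in SH Sham and 4.51, 3.38 and 7.24 CPM in SH SNA. It had 1.35, 0.607 and 1.46 CPM in EE Sham and 3.65, 4.66 and 6.37 CPM in EE SNA. Every SNA sample lay above every sham sample of either housing. The log2 fold change was 2.35 ± 0.339 (standard error) for SH SNA against SH Sham and 2.10 ± 0.309 for EE SNA against EE Sham, and these values were the ground for choosing the gene.

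Saa2, the neighbouring paralog, had 0.352, 0.430 and 0.0669 CPM in SH Sham, the last of which was a single read, and 1.15, 1.27 and 4.22 CPM in SH SNA. It had 0.722, 0.683 and 0.325 CPM in EE Sham and 1.69, 1.26 and 1.45 CPM in EE SNA. SH SNA replicate 3 stood well above the rest, and every SNA sample again lay above every sham sample. The log2 fold change was 2.93 ± 0.625 in SH and 1.31 ± 0.356 in EE. Without SH SNA replicate 3 the value in SH was 2.06.

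The sum of Saa1 and Saa2, which does not depend on how reads were split between them, rested on 14 to 27 reads per sample in SH Sham, 55 to 144 in SH SNA, 17 to 23 in EE Sham and 60 to 136 in EE SNA. Its log2 fold change was 2.51 ± 0.364 in SH and 1.88 ± 0.227 in EE. Saa1 made up 47.1% to 92.9% of the summed reads, with a median of 75.3% over the 12 samples. Saa3, which macrophages and fat tissue are known to express, had 2, 6 and 2 reads in SH Sham, 9, 5 and 30 in SH SNA, 4, 4 and 3 in EE Sham and 2, 12 and 14 in EE SNA. It did not pass the count filter and was not tested, and its groups overlapped. Most of its reads in SH SNA were in replicate 3, which was also the highest of its group for 9 of the 10 genes.

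**Figure D2:**
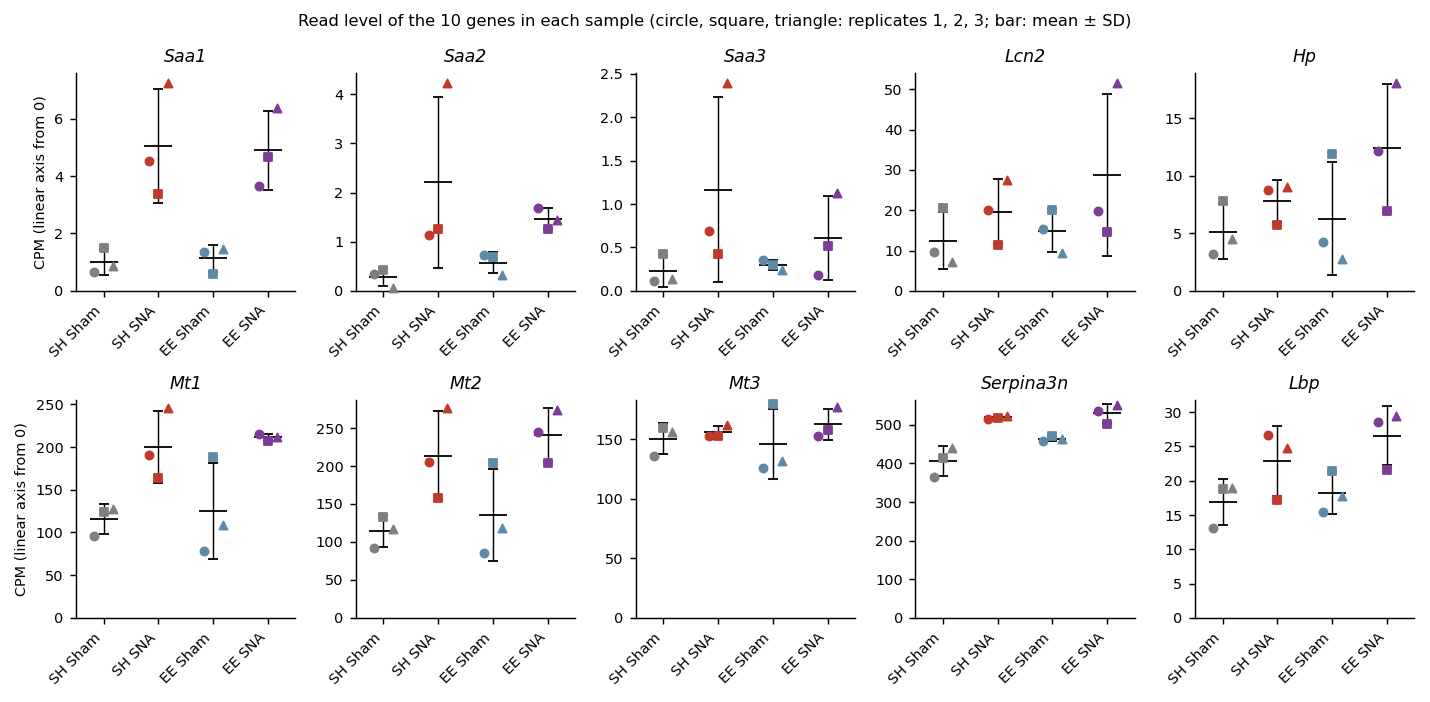
CPM of each of the 10 genes (linear axes from 0) in the 4 groups, with 1 symbol per sample (circle, square and triangle for replicates 1, 2 and 3) and the mean ± SD. All SNA samples lie above all sham samples for Saa1 and Saa2, and EE Sham replicate 2 reaches the level of SNA samples for Hp, Mt1 and Mt2.

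Mt1 and Mt2 rose together after axotomy in standard housing. Mt1 had 95.4, 124 and 128 CPM in SH Sham and 190.2, 163 and 246 CPM in SH SNA. Mt2 had 91.9, 133 and 117 CPM in SH Sham and 205, 158 and 277 CPM in SH SNA. For both, all 3 SNA samples lay above all 3 sham samples, with log2 fold changes of 0.79 ± 0.135 for Mt1 (edgeR quasi-likelihood test, adjusted P = 0.00239) and 0.91 ± 0.170 for Mt2 (adjusted P = 0.00434).

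In enriched mice Mt1 had 78.1, 188 and 109 CPM in EE Sham and 216, 208 and 212 CPM in EE SNA. Mt2 had 85.8, 203 and 119 CPM in EE Sham and 244, 204 and 274 CPM in EE SNA. The groups did not overlap, but EE Sham replicate 2 was close to the SNA samples, and the log2 fold changes of 0.75 ± 0.225 (Mt1, adjusted P = 0.0837) and 0.81 ± 0.234 (Mt2, adjusted P = 0.0718) missed the threshold. Without EE Sham replicate 2 they were 1.16 (adjusted P = 0.00105) and 1.22 (adjusted P = 0.00165), and both were also called with all 12 samples in one fit (adjusted P = 0.0432 and 0.0473). Leaving out other samples took them down to 0.50 and 0.56, and neither was called there. Mt2 stood at 0.915 to 1.29 times Mt1 in the 12 samples, while the sum of both ranged from 164 to 523 CPM, so that the pair moved in step both between groups and between samples of one group.

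Mt3 did not pass the threshold in either housing with all samples. It had 136, 159.7 and 156 CPM in SH Sham, 153, 153 and 162 CPM in SH SNA, 125, 179.6 and 132 CPM in EE Sham and 153, 158 and 177 CPM in EE SNA. The groups overlapped, and the log2 fold change was 0.055 ± 0.0663 in SH (adjusted P = 0.667) and 0.15 ± 0.120 in EE (adjusted P = 0.532). Without EE Sham replicate 2 the value in EE was 0.32 and was called (adjusted P = 0.0379), while with other samples left out it went down to 0.047. Whether Mt3 differed from Mt1 and Mt2 in its change was not tested.

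Serpina3n, the serine protease inhibitor, was the most abundant of the 10 genes in CPM and the least variable. It had 365, 413 and 441 CPM in SH Sham and 516, 517 and 524 CPM in SH SNA. The groups did not overlap, and the gene rose by 0.36 ± 0.0674 on the log2 scale (adjusted P = 0.00472). In EE Sham it had 459, 470.0 and 464 CPM and in EE SNA 537, 503 and 550.3 CPM, also without overlap, with a log2 fold change of 0.18 ± 0.0606 that missed the threshold (adjusted P = 0.111). EE Sham lay above SH Sham in all 3 samples, by 0.19 ± 0.0736 (unadjusted P = 0.0204, adjusted P = 0.9999), which is 1.14-fold. Of all genes tested, 3.29% had all EE Sham samples above all SH Sham samples.

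Lbp, the lipopolysaccharide binding protein, had 13.1, 18.9 and 18.9 CPM in SH Sham and 26.7, 17.2 and 24.8 CPM in SH SNA. SH SNA replicate 2 fell among the sham samples, and the log2 fold change of 0.44 ± 0.169 missed the threshold (adjusted P = 0.122). Without that sample it was 0.61 (adjusted P = 0.0118), while with other samples left out it went down to 0.27. In EE Sham it had 15.4, 21.5 and 17.8 CPM and in EE SNA 28.6, 21.6 and 29.5 CPM, with groups that just did not overlap and a log2 fold change of 0.51 ± 0.143 (adjusted P = 0.0636). Leaving out replicate 2 of either EE group made it a call, at 0.65 each time (adjusted P = 0.0270 without the sham and 0.0217 without the SNA sample). Other samples left out took the value in EE down to 0.40.

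Lcn2 (lipocalin 2) had 9.56, 20.5 and 7.22 CPM in SH Sham and 20.1, 11.3 and 27.5 CPM in SH SNA. It had 15.3, 20.04 and 9.42 CPM in EE Sham and 19.8, 14.5 and 51.7 CPM in EE SNA, where replicate 3 stood far above the others. The groups overlapped in both housings, with log2 fold changes of 0.67 ± 0.345 (adjusted P = 0.250) and 0.90 ± 0.403 (adjusted P = 0.234). Without SH Sham replicate 2, the highest of its group, the value in SH was 1.22 and was called (adjusted P = 0.0267), while leaving out SH SNA replicate 3 gave 0.36. Without EE SNA replicate 3 the value in EE was 0.17.

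Hp (haptoglobin) had 3.17, 7.82 and 4.48 CPM in SH Sham and 8.79, 5.75 and 8.99 CPM in SH SNA. It had 4.24, 11.8 and 2.76 CPM in EE Sham and 12.1, 6.96 and 18.1 CPM in EE SNA. The groups overlapped, with log2 fold changes of 0.63 ± 0.274 (adjusted P = 0.176) and 0.90 ± 0.439 (adjusted P = 0.270). Both were called without the highest sham sample, at 1.05 without SH Sham replicate 2 (adjusted P = 0.0180) and 1.78 without EE Sham replicate 2 (adjusted P = 0.0238). With other samples left out they went down to 0.35 and 0.51. The lowest and the highest EE Sham sample differed by more than the mean of EE SNA differed from that of EE Sham.

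Of the 7 genes tested for axotomy (all but Saa1, Saa2 and Saa3), 3 rose in SH SNA against SH Sham, Mt1, Mt2 and Serpina3n, and none fell. Of all 16238 genes tested, 6.06% were called higher and 5.17% lower in this comparison. At an unadjusted P-value of 0.05, 5 of the 7 were higher, against 13.4% of all genes, and 3 of the 7 had no overlap of the groups, against 14.3% of all genes. The median log2 fold change of the 7 was 0.63, beside 0.0047 over all genes.

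In EE SNA against EE Sham none of the 7 was called by edgeR after adjustment, where 2.51% of all genes were called higher and 2.33% lower. DESeq2 called 1 of the 7, Lbp. All 7 had log2 fold changes above 0, with a median of 0.75 beside 0.0039 over all genes. At an unadjusted P-value of 0.05, 5 of the 7 were higher (Lcn2, Mt1, Mt2, Serpina3n and Lbp), against 10.3% of all genes, and 4 of the 7 had no overlap of the groups (Mt1, Mt2, Serpina3n and Lbp), against 13.4%. The interaction of housing and surgery, which tests whether axotomy moved a gene differently in EE than in SH, was called for none of the 7 genes, with 0 of the 7 at an unadjusted P-value of 0.05, 0 by DESeq2, and 0.0% of all genes called. For Mt1 it was −0.035 ± 0.306 and for Mt2 −0.087 ± 0.339. For Saa2, chosen on the values that make up this difference and so given with no test, it was −1.62 ± 0.839, and for the sum of Saa1 and Saa2 −0.62 ± 0.502. The numbers of calls differed between the housings, but no gene was called for a difference in its response.

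**Figure D3:**
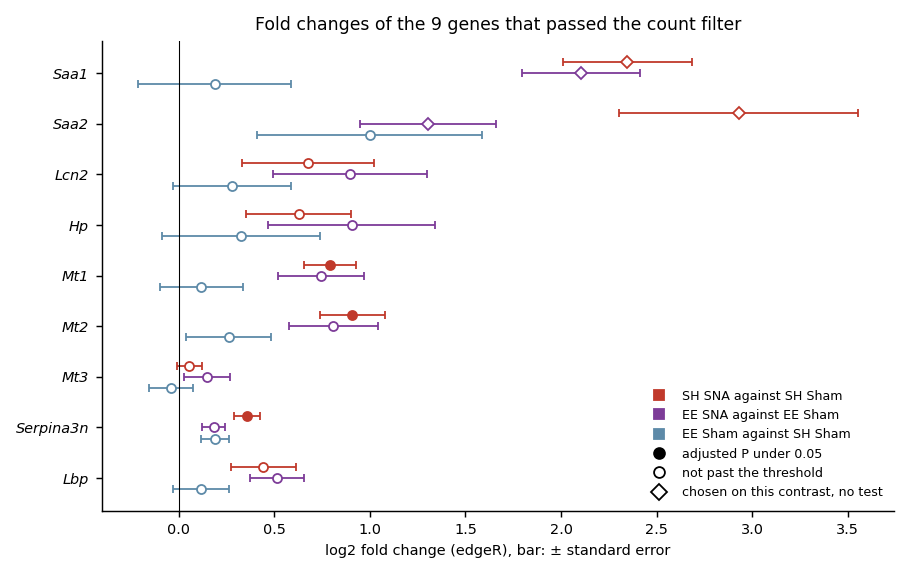
log2 fold changes (points) ± standard error (bars) of the 9 genes that passed the count filter, for 3 comparisons by colour; filled circles passed an adjusted P of 0.05, and open diamonds mark Saa1 and Saa2 in the contrasts they were chosen on, with no test. Filled circles are seen for Mt1, Mt2 and Serpina3n in SH SNA against SH Sham. The open circles of Saa1 and Saa2 in EE Sham against SH Sham are a description too.

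EE SNA was also set against SH Sham, the comparison that combines both treatments and shares its controls with SH SNA against SH Sham. Here 5 of the 7 genes were called higher, against 6.87% of all genes. The log2 fold changes were 0.87 ± 0.0919 for Mt1 (adjusted P = 0.000103), 1.08 ± 0.125 for Mt2 (adjusted P = 0.000191), 0.38 ± 0.0715 for Serpina3n (adjusted P = 0.00462), 0.64 ± 0.148 for Lbp (adjusted P = 0.0150) and 1.24 ± 0.338 for Hp (adjusted P = 0.0309). Without SH Sham replicate 1 the calls of Hp (0.96, adjusted P = 0.141) and Lbp (0.47, adjusted P = 0.0624) were lost, and without EE SNA replicate 1 they were lost too (adjusted P = 0.0802 and 0.0651). The call of Hp was also lost without SH Sham replicate 3 and without EE SNA replicate 3 (adjusted P = 0.0981 and 0.0957), and with the replicate number as a block (adjusted P = 0.0841). DESeq2 and the fit of all 12 samples each called 4 of the 7, without Hp (adjusted P = 0.105 and 0.0680). The fits on FPKM called 3, without Hp and Lbp. Lcn2 missed the threshold at 1.18 ± 0.430 (adjusted P = 0.0944) and was called without SH Sham replicate 2 (1.73, adjusted P = 0.0313) and without EE SNA replicate 2 (1.55, adjusted P = 0.0143), but had 0.45 without EE SNA replicate 3.

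Housing alone moved none of the 7 genes past the threshold. Saa1 and Saa2 were chosen on values of these same groups, so here too they are described with no test. In EE Sham against SH Sham, 0 of the 7 were called by edgeR and 0 by DESeq2, and 0.00616% of all genes were called. At an unadjusted P-value of 0.05, 1 of the 7 (Serpina3n) was called, against 2.97% of all genes. The log2 fold changes were 0.999 ± 0.590 for Saa2, 0.33 ± 0.413 for Hp, 0.28 ± 0.309 for Lcn2, 0.26 ± 0.221 for Mt2, 0.19 ± 0.402 for Saa1, 0.12 ± 0.219 for Mt1, 0.12 ± 0.149 for Lbp and −0.043 ± 0.116 for Mt3. In EE SNA against SH SNA, 0 of the 7 were called by edgeR, 0 by DESeq2 and 0 at an unadjusted P-value of 0.05, with 0.0% of all genes called. The largest differences were 0.62 ± 0.294 for Hp (unadjusted P = 0.0581) and −0.62 ± 0.449 for Saa2, which turned to 0.26 without SH SNA replicate 3.

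The samples of one group differed more in these genes than in most others. The SD of log2 CPM within groups was 0.727 for Lcn2, 0.687 for Hp, 0.497 for Saa2, 0.437 for Saa1, 0.410 for Mt2, 0.370 for Mt1, 0.279 for Lbp, 0.165 for Mt3 and 0.0772 for Serpina3n, beside a median of 0.129 over all genes tested. Among genes of at least the same mean level, Lcn2, Hp, Mt1 and Mt2 were each more variable than at least 99.7% of genes, whereas Serpina3n was more variable than 45.5%. SH SNA replicate 3 and EE SNA replicate 3 were the highest of their groups for 9 and 8 of the 10 genes, and SH SNA replicate 2 and EE SNA replicate 2 the lowest for 7 each. Among the sham samples, SH Sham replicate 1 was the lowest for 8 of the 10 genes and EE Sham replicate 2 the highest for 7.

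**Figure D4:**
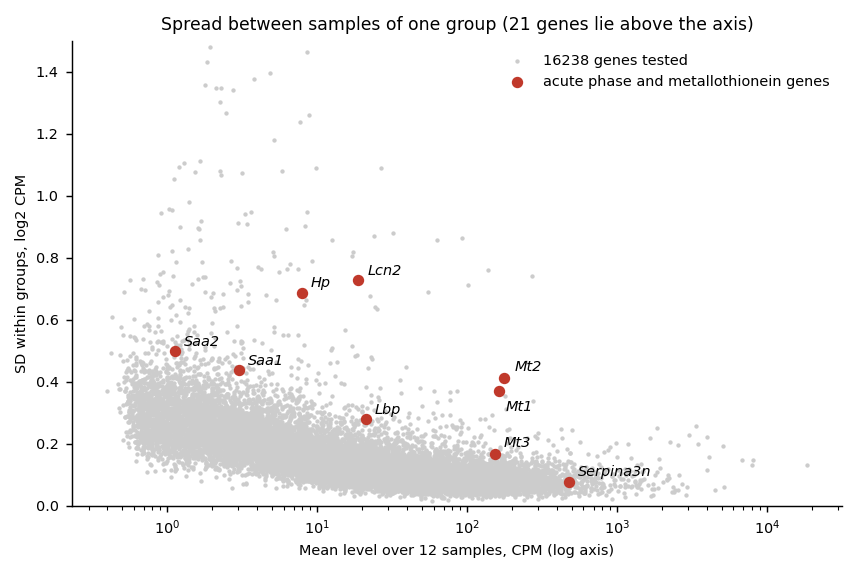
SD of log2 CPM within groups (linear axis) against the mean CPM over 12 samples (log axis) for all 16238 genes tested (grey) and the 9 genes that passed the filter (red). Lcn2, Hp, Mt1 and Mt2 lie above nearly all genes of their level, and Serpina3n lies within them.

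Lcn2 moved with the markers of neutrophils, which are known to store its product in their granules. The summed CPM of 12 neutrophil genes was 80.2 to 212 in SH Sham, 132 to 348 in SH SNA, 106 to 249.99 in EE Sham and 169 to 812 in EE SNA, with the highest sum in the same sample, EE SNA replicate 3, that had the most Lcn2. Lcn2 stood at 6.36 to 10.2 CPM per 100 CPM of these genes in the 12 samples, a 1.60-fold range, while Lcn2 itself ranged 7.15-fold and the marker sum 10.1-fold. The same ratio ranged 2.92-fold for Hp, 6.11-fold for Mt1, 8.10-fold for Serpina3n, which itself ranged 1.51-fold, and 11.4-fold for Saa1. Set against red blood cell, macrophage and adipocyte genes, the ratio of Hp ranged 3.01-fold, 3.76-fold and 3.94-fold. In the same order that of Lcn2 ranged 2.99-fold, 3.58-fold and 6.52-fold. These ratios were formed after their values were seen, and the part of neutrophils in the levels of Lcn2 and Hp was not tested. None of the 10 neutrophil genes that passed the filter was called in either comparison of SNA with sham of the same housing, with 4 in SH (13.4% of all genes) and 2 in EE (10.3% of all genes) higher at an unadjusted P-value of 0.05 and median log2 fold changes of 0.78 and 0.97. In bulk RNA of this kind, more cells of a type and more RNA per cell cannot be told apart.

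**Figure D5:**
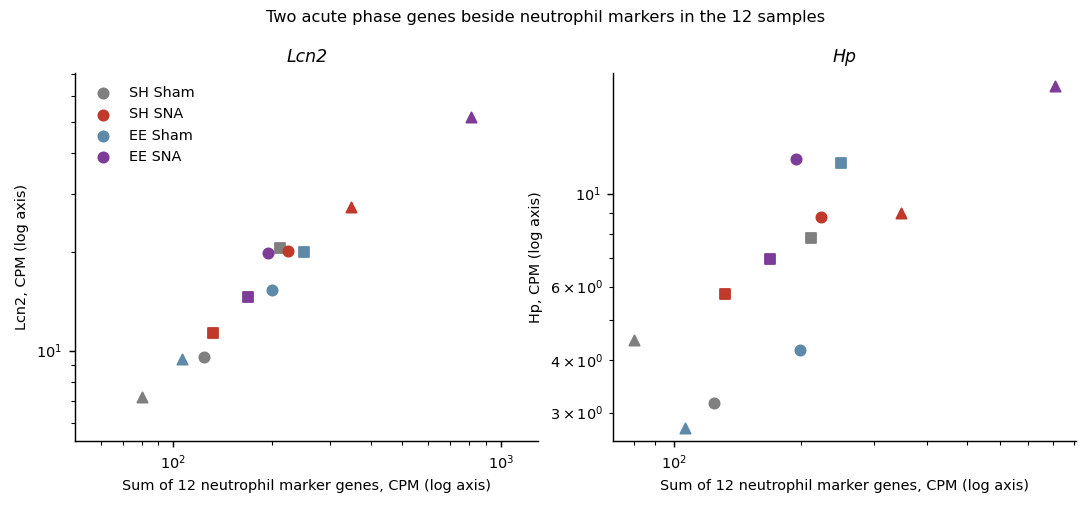
CPM of Lcn2 (left) and Hp (right) against the summed CPM of 12 neutrophil marker genes, both on log axes, with 1 symbol per sample coloured by group (circle, square and triangle for replicates 1, 2 and 3). Lcn2 keeps to 6.36 to 10.2 CPM per 100 CPM of markers, and Hp scatters more widely, from 2.13 to 6.21.

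Other cell markers gave these values. The 11 liver cell genes summed to 8.32 to 11.8 CPM in SH Sham, 9.63 to 13.0 in SH SNA, 8.61 to 13.2 in EE Sham and 12.4 to 19.8 in EE SNA, whose samples all lay above those of SH Sham. Cyp2e1 (1.99 to 13.7 CPM) and Apoh (3.73 to 6.69 CPM) were found in every sample, whereas Alb had at most 0.322 CPM, Fgb at most 0.0587 CPM and Cyp3a11 no read. Of these genes 2 passed the filter and none was called, with 1 higher in SH and 0 in EE at an unadjusted P-value of 0.05 (13.4% and 10.3% of all genes). The 12 macrophage genes summed to 141 to 156 CPM in SH Sham, 164 to 227 in SH SNA, 133 to 171 in EE Sham and 179.9 to 297 in EE SNA, and 4 of them were called higher in SH SNA (Mrc1, Itgam, Fcgr3 and Lyz2), against 6.06% of all genes. In EE SNA against EE Sham 0 were called, against 2.51% of all genes, and 7 were higher at an unadjusted P-value of 0.05, against 10.3%. The 10 adipocyte genes summed to 29.2 to 55.5 CPM in SH Sham, 36.0 to 80.7 in SH SNA, 34.5 to 82.7 in EE Sham and 55.2 to 169 in EE SNA, with none called and, at an unadjusted P-value of 0.05, 2 higher in SH and 5 in EE, against 13.4% and 10.3% of all genes. In EE SNA against SH SNA none was called, and 5 of the 8 that passed the filter were higher at an unadjusted P-value of 0.05. There 4.1% of all genes had such a P-value in either direction, and the median log2 fold change of the 8 was 1.13. The summed level of 4 red blood cell genes was 119 to 186 CPM in SH Sham, 193 to 528 in SH SNA, 115 to 318 in EE Sham and 179.8 to 622 in EE SNA, with 2 of them called in SH SNA and 0 in EE SNA against EE Sham (6.06% and 2.51% of all genes). The 8 Schwann cell genes summed to 7865 to 9590 CPM in SH Sham, 8491 to 12336 in SH SNA, 7052 to 9860 in EE Sham and 10296 to 13264 in EE SNA, so that the groups overlapped in SH and not in EE. The 8 fibroblast genes, with 1572 to 1801 CPM in SH Sham, 1735 to 2359 in SH SNA, 1549 to 1869 in EE Sham and 2049 to 2790.2 in EE SNA, and the 8 endothelial genes, with 153 to 183, 176 to 196, 135 to 177 and 186 to 206 CPM in the same order, likewise overlapped in SH and lay higher in EE SNA than in EE Sham without overlap. Called higher in SH SNA were 1 Schwann cell, 1 fibroblast and 1 endothelial gene of 8 each, and in EE SNA against EE Sham 2 fibroblast genes (6.06% and 2.51% of all genes). The sums of the 8 satellite glia genes overlapped in both housings. Of these genes 2 were called higher in SH SNA and 1 in EE SNA against EE Sham (6.06% and 2.51% of all genes). Skeletal muscle genes summed to 1074 CPM in SH SNA replicate 2 and to at most 322 CPM in each of the others. None of the 8 was called, with 6 higher in SH and 0 in EE at an unadjusted P-value of 0.05 (13.4% and 10.3% of all genes). Their median log2 fold change was 2.68 in SH and 0.68 in EE. Of these genes Pvalb had 111 to 169 CPM over all samples, whereas Acta1 ranged from 1.17 to 263 CPM and Ckm from 0.235 to 154 CPM. The lowest sum, 116 CPM in SH Sham, was thus mostly Pvalb. The tissue was that of its label, with 12 sensory neuron genes at 16734 to 17504 CPM in SH Sham, 15069.6 to 16029 in SH SNA, 15695 to 16574 in EE Sham and 14841 to 15602 in EE SNA. This sum was lower after axotomy in both housings without overlap, and 2 of the 12 genes were called lower in SH and 1 in EE, against 5.17% and 2.33% of all genes. The part of these cells in the changes of the 10 genes was not tested.

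The genes around the acute phase response were read from lists chosen with earlier results known. Of 27 other acute phase genes, 12 passed the filter, and 3 of these rose in SH SNA, against 6.06% of all genes: Timp1, an inhibitor of metalloproteinases, by 0.65 ± 0.107 (adjusted P = 0.00178), Steap4, a metalloreductase, by 0.54 ± 0.145 (adjusted P = 0.0318), and Serping1, the C1 inhibitor, by 0.26 ± 0.0630 (adjusted P = 0.0173). Timp1 and Steap4 also rose in EE SNA against EE Sham, by 0.46 (adjusted P = 0.0441) and 0.55 (adjusted P = 0.0139), where 2.51% of all genes were called higher. None fell, and the median log2 fold change of the 12 was 0.45 in SH and 0.27 in EE. Complement C3 had 0.79 in SH (adjusted P = 0.0753) and 0.58 in EE (adjusted P = 0.247). The classical liver products Crp, Apcs, Saa4, Fga and Fgb were at or near 0 CPM, whereas the fibrinogen gene Fgg had 1.10 to 1.88 CPM and passed the filter. Its log2 fold change in SH was −0.33 (adjusted P = 0.483). Of the 6 negative acute phase genes, which fall in the liver response, 2 passed the filter (Trf and Rbp4) and neither was called, also not at an unadjusted P-value of 0.05. Of 10 relatives of Serpina3n, 5 passed and none was called, with 1 higher and 1 lower in each housing at an unadjusted P-value of 0.05 (13.4% higher and 11.8% lower of all genes in SH, 10.3% and 10.4% in EE). A few 100-base windows of Serpina3n, 0.204% of them, also occur in Serpina3e-ps or Serpina3g.

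Of 18 genes for the cytokines, receptors and factors that induce acute phase genes, 16 passed the filter. Of these 4 rose in SH SNA, where 6.06% of all genes were called higher, and 3 in EE SNA, where 2.51% were, with none lower. Il6, the cytokine that drives the response in the liver, rose by 1.02 ± 0.226 in SH (adjusted P = 0.0113) and by 1.58 ± 0.226 in EE (adjusted P = 0.00226). Socs3, the feedback inhibitor of this signal, rose by 0.47 (adjusted P = 0.0161) and 0.48 (adjusted P = 0.00452), and the interleukin-1 receptor Il1r1 by 0.52 (adjusted P = 0.0112) and 0.48 (adjusted P = 0.0162). Tnfrsf1a was called in SH (0.25, adjusted P = 0.0472) and had 0.30 in EE (adjusted P = 0.0526). Stat3 had 0.17 in SH (adjusted P = 0.0769) and 0.10 in EE (adjusted P = 0.363). The median of the 16 was 0.23 in SH and 0.29 in EE.

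Among 14 receptors and partners of the 10 gene products that passed the filter, 1 fell in SH SNA, Slc22a17, the lipocalin 2 receptor, by 0.20 on the log2 scale (adjusted P = 0.0456, with 5.17% of all genes called lower), and 1 rose in EE SNA against EE Sham, Hmox1, haem oxygenase, by 0.39 (adjusted P = 0.0351, with 2.51% of all genes called higher). Of 11 further metal handling genes that passed, 4 rose in SH SNA, against 6.06% of all genes. None was called in EE SNA against EE Sham, against 2.51% of all genes, and 4 were higher there at an unadjusted P-value of 0.05, against 10.3%. Those in SH SNA were the iron transporter Slc11a2 by 0.35 (adjusted P = 0.00622), the zinc exporter Slc30a4 by 0.28 (adjusted P = 0.0359), the metal responsive factor Mtf1 by 0.26 (adjusted P = 0.0414) and ferritin light chain Ftl1 by 0.21 (adjusted P = 0.0347). In EE SNA these 4 had 0.26, 0.26, 0.053 and 0.26, with adjusted P from 0.0724 to 0.760. The median of the 11 was 0.21 in SH and 0.23 in EE.

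Of 12 glucocorticoid responsive genes, 5 rose in SH SNA and 3 in EE SNA, against 6.06% and 2.51% of all genes. The cell cycle inhibitor Cdkn1a rose by 0.92 (adjusted P = 9.32e-06) and 0.66 (adjusted P = 0.00430), Dusp1, a phosphatase, by 0.59 (adjusted P = 0.000750) and 0.53 (adjusted P = 0.00434), and the clock gene Per1 by 0.34 (adjusted P = 0.0260) and 0.38 (adjusted P = 0.0385). The other 2 were called in SH SNA and not in EE SNA: the transcription factor Zbtb16 had 1.38 in SH (adjusted P = 0.00264) and −0.38 in EE (adjusted P = 0.146), and Fkbp5 had 0.49 (adjusted P = 0.0132) and 0.039 (adjusted P = 0.875). Zbtb16 was also the gene of this list called in EE Sham against SH Sham, at 1.43 ± 0.194 (adjusted P = 0.0452). The interaction called neither of these 2 genes.

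The genes most like these in pattern were found by Pearson's r of log2(CPM + 0.5) over the 12 samples among 15335 tested genes with a mean of at least 1 CPM. For Lcn2 they were the neutrophil genes S100a9 (r = 0.984), Mmp8 (r = 0.981) and Ltf (r = 0.981). For the sum of Mt1 and Mt2 they were Lims2 (r = 0.973), Cnp (r = 0.972) and Tacc1 (r = 0.964), of which Cnp, a gene of myelin, ranged from 207 to 329 CPM. For the sum of Saa1 and Saa2 they were Scpep1 (r = 0.971), Maz (r = 0.970) and Slfn9 (r = 0.966), and for Serpina3n Rnf4 (r = 0.955), Angpt2 (r = 0.953) and Hnrnpf (r = 0.943). The 12 points share their groups, so that any gene that moved with axotomy can score high, and the r values are a description.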

How the data were processed

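Whole sciatic DRG RNA was read in 12 samples with a TruSeq mRNA kit and paired reads of 100 bases. The authors aligned the reads to mm10 with TopHat2 2.0.12 and Bowtie2 2.2.3, and HTSeq (0.6.0 in the submitters' processing notes) gave a count for each gene name; whether strand was used is not given in the sources used here. The deposited count table holds whole-number counts that are not normalized, and its lines of reads outside genes (no feature 46.7% to 47.6%, not unique 8.49% to 9.28% of all reads) were left out. The deposited FPKM values were computed by the authors per gene length and library total. Reads that match 2 genes equally were dropped by this counting, which can lower close paralogs.

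Counts were scaled by TMM and filtered with filterByExpr (10 counts, total of 15, given the 4 groups) in edgeR 4.0.16 with R 4.3.3, leaving 16238 genes. Each comparison was fitted on its own 6 samples with glmQLFit and tested two-sided with the quasi-likelihood F test, and the interaction on all 12. The standard errors were derived from this test, as the absolute log2 fold change divided by the square root of the F statistic. For Saa1 and Saa2 they are therefore not to be read as a test. Calls were made at a Benjamini-Hochberg adjusted P of 0.05 over all tested genes. With 3 samples in a group, P-values measure the spread between pools of 2 mice. The 10 genes and all lists were chosen with earlier results of these data known. All 10 genes were named in every comparison, list genes as called genes of largest change, and for likeness 3 genes per pattern. Samples of a group differed by more than sampling noise (chi-square per degree of freedom at least 3.90 in 12 pairs). To see if equal replicate numbers mark paired samples, deviations from group means were correlated. EE Sham and SH Sham gave r of 0.331, 0.137 and 0.111, all above the limit of 0.1, but on log2(CPM + 0.5), tried after seeing the data, the last was 0.0793, so that whether they pair was not settled. In every other comparison at least 1 pair was below 0.1. Sequences came from GENCODE transcripts and from RefSeq promoters (GRCm38.p6). The table names Chil3 as Chi3l3 and Adgre1 as Emr1, and 2 red blood cell markers (Hbb-bs and Hbb-bt) were not matched. Alternatives were DESeq2 1.42.0, a likelihood ratio test, library sizes without TMM, no filter, at least 10 counts in every sample, all 12 samples in one fit, a replicate block, limma 3.58.1 on log2 of FPKM plus 1 or 0.1, summed paralogs, and each sample left out in turn.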

Additional observations from a re-analysis of the deposited data

How the results depend on the processing

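For SH SNA against SH Sham, where 3 of 7 genes were called, 7 of 8 were called with no filter and 5 at an unadjusted P. With one sample left out 3 to 5 were called, and this also relaxed the filter so that Saa3 could enter. Saa3 was among the genes called with no filter and without SH SNA replicate 2. It had 2, 6 and 2 reads in SH Sham and entered by its reads in SNA samples, so these calls of Saa3 are not to be read as a test. For EE SNA against EE Sham, where 0 of 7 were called, DESeq2 called 1, the likelihood ratio test 3, no filter 5, all 12 samples in one fit 2, an unadjusted P 5, and leaving out one sample 0 to 5, with 5 without EE Sham replicate 2. For EE SNA against SH Sham, where 5 of 7 were called, FPKM plus 1 and plus 0.1 gave 3 each and leaving out one sample 3 to 6. For EE Sham against SH Sham an unadjusted P gave 1 of the 7, Serpina3n. The cause was not tested. The replicate block gave 3, 0, 4, 0, 0 and 0 calls in the 6 comparisons in the order of the text (SH SNA, EE SNA against EE Sham, EE SNA against SH Sham, EE Sham, EE SNA against SH SNA, interaction), and lost only Hp in EE SNA against SH Sham; the pairing check was met in EE Sham against SH Sham alone, and there on 1 of 2 log scales, and the block changed no call in it.

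Of 321 alternative values for the 7 genes tested in the 3 comparisons of SNA with sham, 1 changed sign, Mt3 in SH, whose values with one sample left out ran from −0.023 to 0.098. The other changes of sign were in differences between housings, none of which was called. With one sample left out, EE Sham against SH Sham ran from −0.068 to 0.58 for Saa1, −0.0059 to 0.83 for Lcn2, −0.55 to 0.75 for Hp, −0.31 to 0.37 for Mt1, −0.16 to 0.51 for Mt2, −0.23 to 0.058 for Mt3 and −0.047 to 0.22 for Lbp. EE SNA against SH SNA ran from −0.27 to 0.30 for Saa1, −0.93 to 0.26 for Saa2, −0.22 to 0.87 for Lcn2, −0.049 to 0.26 for Mt1, −0.0070 to 0.40 for Mt2 and −0.0039 to 0.10 for Mt3. The interaction ran from −0.63 to 0.12 for Saa1, −0.50 to 0.59 for Lcn2, −0.12 to 1.17 for Hp, −0.29 to 0.39 for Mt1, −0.34 to 0.33 for Mt2, −0.0041 to 0.28 for Mt3 and −0.096 to 0.25 for Lbp. On FPKM plus 1 and plus 0.1 it was 0.079 and 0.080 for Mt1 and 0.029 and 0.029 for Mt2. Depth limits Saa2 and Saa3, with 1 to 9 reads per sham sample.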

Other observations

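Cp, the copper binding ceruloplasmin and another acute phase gene, had a log2 fold change of 0.24 ± 0.103 in SH SNA (adjusted P = 0.166) and of 0.26 ± 0.0725 in EE SNA (adjusted P = 0.0630). The transferrin receptor gene Tfrc had −0.15 ± 0.0670 (adjusted P = 0.196) and −0.21 ± 0.109 (adjusted P = 0.307), the only one of the 12 other acute phase genes tested that was below 0 in both. The interleukin-1 antagonist Il1rn had 1.01 ± 0.442 (adjusted P = 0.175) and 1.51 ± 0.521 (adjusted P = 0.126). The coding sequences of Mt1, Mt2 and Mt3 held 20 cysteine codons each, in 61, 61 and 68 codons.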
